A study of Saccharomyces cerevisiae with 24 samples.

Results

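Yeast makes a set of small, stable RNAs that are never translated. Most are small nucleolar RNAs (snoRNAs), which pair with precursor ribosomal RNA: box C/D snoRNAs direct ribose methylation and box H/ACA snoRNAs direct pseudouridylation, and a few take part in cleaving the precursor. Others are the RNAs of the spliceosome, of telomerase, of RNase P and RNase MRP, and of the signal recognition particle, which targets nascent proteins to the endoplasmic reticulum. Most of these genes are read by RNA polymerase II and a few by RNA polymerase III, and snoRNA genes stand alone, in tandem clusters cut from 1 transcript, or inside introns of protein genes. The peaks of FAIRE, an assay of open chromatin, were examined here over and beside these genes. The genes were all those of biotype snoRNA, snRNA, telomerase RNA, RNase P RNA, RNase MRP RNA or SRP RNA on the nuclear chromosomes of the R64 gene table, which gave 86 of its 6431 nuclear genes: 76 snoRNA genes, 6 snRNA entries and 1 gene each for the other 4 kinds.

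The data came from FAIRE, in which formaldehyde-fixed chromatin is sheared and extracted with phenol and chloroform, so that DNA with little bound protein is recovered and sequenced. All libraries were from 3-day-old giant colonies of BY4742, a haploid laboratory strain that carries auxotrophic marker deletions, on a glycerol and ethanol medium. The biomass sampled was 4 mg in 3 biological replicates, and 20 mg, 100 mg or 500 mg in 3 each, which asks how the assay behaves with less material, and each of the 12 FAIRE libraries was set against its own unfixed input library to give 1 peak list. Strain, medium, age and assay were the same in all groups, and each library averages the cells of the sampled colony material, so a peak present in fewer cells cannot be told apart from a weaker peak in all of them. The labels do not say whether replicates came from separate colonies or plates, and p-values measure the spread between these libraries. The lists held between 4157 and 6436 nuclear peaks. Read totals were not analysed here.

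Few of the small RNA genes lay in a FAIRE peak. A gene was counted as having a peak over it when its midpoint fell inside a peak, a rule that does not favour long genes. By this rule 6.98% ± 0.992 of the small RNA genes had a peak over them (SD, n = 12 libraries), between 5 and 8 genes of 86 per library. The same share was 24.6% ± 3.53 for the 6002 protein-coding genes and 58.0% ± 9.22 for the 275 nuclear tRNA genes, which are shorter still, with a median of 73 bp against 162.5 bp for the small RNA genes. Peaks covered 19.8% ± 2.66 of the nuclear genome and 17.2% ± 2.07 of the sequence outside all annotated genes. The small RNA genes were below each of these 4 values in 12 of 12 libraries, by 10.3 ± 1.92 percentage points for sequence outside genes and by 51.1 ± 9.31 points for tRNA genes. The groups of values did not overlap: the highest library for small RNA genes, 20 mg replicate 3, had 9.30%, and the lowest for the genome, 100 mg replicate 1, had 14.4%. These are descriptions of a fixed set of genes, and no p-value is attached to them.

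**Figure D1:**
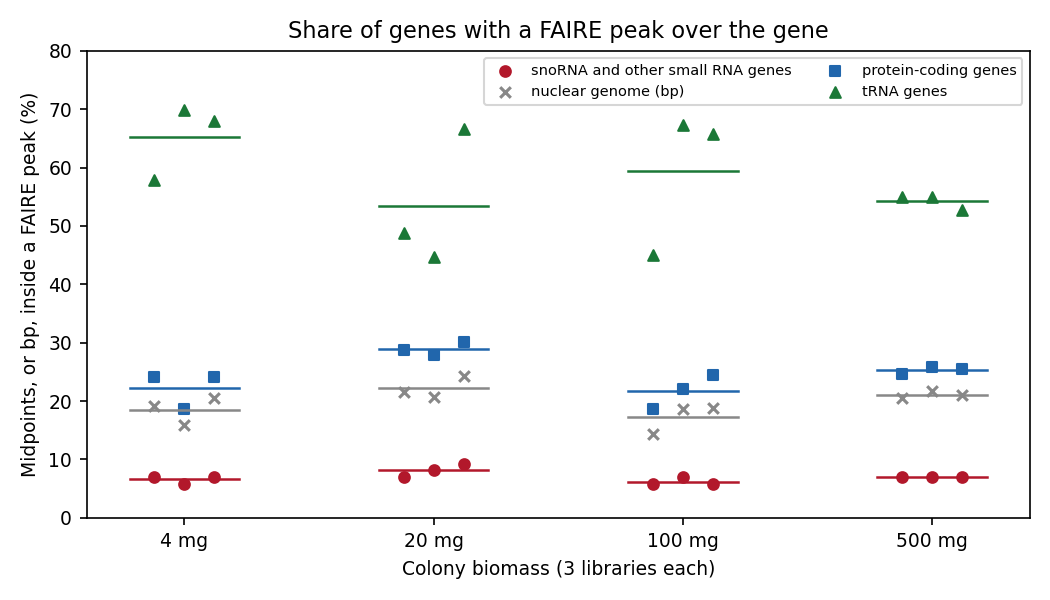
Percent of gene midpoints inside a FAIRE peak (vertical axis, from 0) in each library, by colony biomass (horizontal axis, 3 libraries each), for small RNA genes (circles), protein-coding genes (squares) and tRNA genes (triangles), with the percent of nuclear bp inside peaks (crosses) and horizontal lines at group means. The small RNA genes lie between 5.81% and 9.30% in every library, below the other 3 sets.

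The genes split into a small group with a peak nearly always and a large group with a peak never. A peak lay over 6 genes in 10 or more libraries, over 4 genes in 1 or 2 libraries, and over 76 genes (88.4%) in none. Of the protein-coding genes 62.4% and of the tRNA genes 18.9% had none. When a single shared base pair sufficed, 70 of the 86 genes were still free of peaks in all 12 libraries. The nearest peak to these 70 genes lay a median of 671 bp away, and for 41 of them the median distance over libraries exceeded 500 bp.

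Among the genes for RNAs other than snoRNAs, those of RNase P and of the signal recognition particle carried peaks in most libraries, strong by their median but not in every list. RPR1, the RNase P RNA gene (chromosome V, 117667 to 118035, minus strand), lay wholly inside a peak in 11 libraries, while in 100 mg replicate 1 a peak covered 48.8% of it. A summit lay inside RPR1 in 12 libraries, and the authors' fold enrichment of the peaks over its midpoint had a median of 2.69 (1.69 to 4.38). Ranked by −log10 p within its own list, the RPR1 peak stood at a median percentile of 88.5 (37.4 to 99.9), so it was among the stronger peaks of most lists. SCR1, which encodes the RNA of the signal recognition particle (chromosome V, 441987 to 442508, plus strand), lay wholly inside a peak in 10 libraries, was covered over 32.6% of its length in 20 mg replicate 2 and was free of peaks in 100 mg replicate 1. The median fold enrichment over SCR1 was 2.79 (1.76 to 3.65) and the median percentile 76.7 (31.3 to 98.2). Both genes are transcribed by RNA polymerase III, from promoter elements that include sequence inside the transcribed region.

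The other 2 genes of this kind in the set, SNR6 and SNR52, had no peak over the midpoint in any library. SNR6, the gene of a spliceosomal RNA (chromosome XII, 366235 to 366346), had a summit upstream in 8 libraries, at a median of 263.5 bp. The peaks there were weak, at a median percentile of 9.83. SNR52, a box C/D snoRNA gene (chromosome V, 431129 to 431220), had an upstream summit in 9 libraries and was touched by a peak edge in 3. Both sets of summits lay outside annotated genes. For the tRNA genes, which RNA polymerase III reads as well, a peak lay over 130 of 275 genes in 10 or more libraries.

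Apart from LSR1, the spliceosomal RNA genes read by RNA polymerase II were mostly bare. LSR1 (chromosome II, 680688 to 681862) is long, and peaks covered between 16.4% and 40.7% of it in 12 libraries, reaching its midpoint in 20 mg replicate 3 and 100 mg replicate 1. A summit lay inside LSR1 in 7 libraries and within 500 bp of it in 10. SNR19 (chromosome XIV, 230105 to 230672) was touched in 2 libraries, over 37.3% of its length in 20 mg replicate 2, where the peak reached the midpoint, and over 34.9% in 20 mg replicate 3. SNR14 (chromosome V, 167427 to 167586) and the overlapping entries SNR7-L and SNR7-S, which are 1 gene with 2 RNA lengths (chromosome VII, 939459 to 939672), were never touched and had no summit within 500 bp on either side. The nearest peak to SNR14 was between 884 and 5304 bp away, and that to SNR7-L between 1412 and 7359 bp. NME1, the RNase MRP RNA gene (chromosome XIV, 585587 to 585926), had none within 724 bp. TLC1, the telomerase RNA gene (chromosome II, 307587 to 308887), was also free of peaks, with a downstream summit in 6 libraries that lay in the neighbouring gene CSG2.

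All 6 snoRNA genes with a peak over the midpoint in any library were box H/ACA genes. Of 29 H/ACA genes, 4 had a peak in 10 or more libraries and 2 in 1 library, whereas 0 of 47 box C/D genes had a peak over the midpoint in any of the 12 libraries. The contrast was smaller by other measures. When 1 shared bp sufficed, 42 of 47 C/D and 22 of 29 H/ACA genes were free of peaks in all 12 libraries. A summit lay in either flank of 33.7% ± 2.70 of C/D and 39.1% ± 9.57 of H/ACA genes (SD, n = 12). The H/ACA genes are also longer, with a median of 204 bp against 98 bp for C/D genes, and the part of length in this difference was not tested. SNR30 (chromosome XII, 198784 to 199389), an H/ACA RNA needed for cleavage of precursor ribosomal RNA, had a summit inside the gene in 12 libraries. Peaks covered between 53.1% and 82.2% of SNR30, and the summit lay a median of 173 bp inside its 5′ end, between 108 and 236 bp, with a median fold enrichment of 2.83. SNR81 (chromosome XV, 234346 to 234546), a pseudouridylation guide, was wholly covered in 11 libraries and over 57.2% of its length in 100 mg replicate 3. The summit of the covering peak lay inside SNR81 in 9 libraries and downstream of it in the other 3, and the median fold enrichment was 2.73.

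SNR85 and SNR8 were covered by peaks centred elsewhere. SNR85, an H/ACA guide (chromosome XIII, 67768 to 67938, minus strand), was wholly covered in 12 libraries, but every summit lay just upstream of it, between 18 and 65 bp from its 5′ end. Its median fold enrichment was 2.94, and its percentile within the lists ran from 12.9 to 93.3. SNR8, another H/ACA guide (chromosome XV, 832332 to 832521), was wholly covered in 10 libraries and not touched in 4 mg replicate 2 and 100 mg replicate 3. The peaks over SNR8 were wide, with a median of 1414.5 bp, and had their summits upstream, at positions -808 to -498 bp from the 5′ end, toward the ribosome assembly gene FSF1. They were the strongest over any snoRNA gene of the set by median percentile, 90.1, with a median fold enrichment of 3.29. The 2 remaining genes had a peak over the midpoint in 1 library each. SNR43 lay wholly inside a peak in 20 mg replicate 3 and was covered in part, at most 49.8%, in 10 other libraries, and SNR10 had a weak peak, at percentile 3.53, in 20 mg replicate 2.

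**Figure D2:**
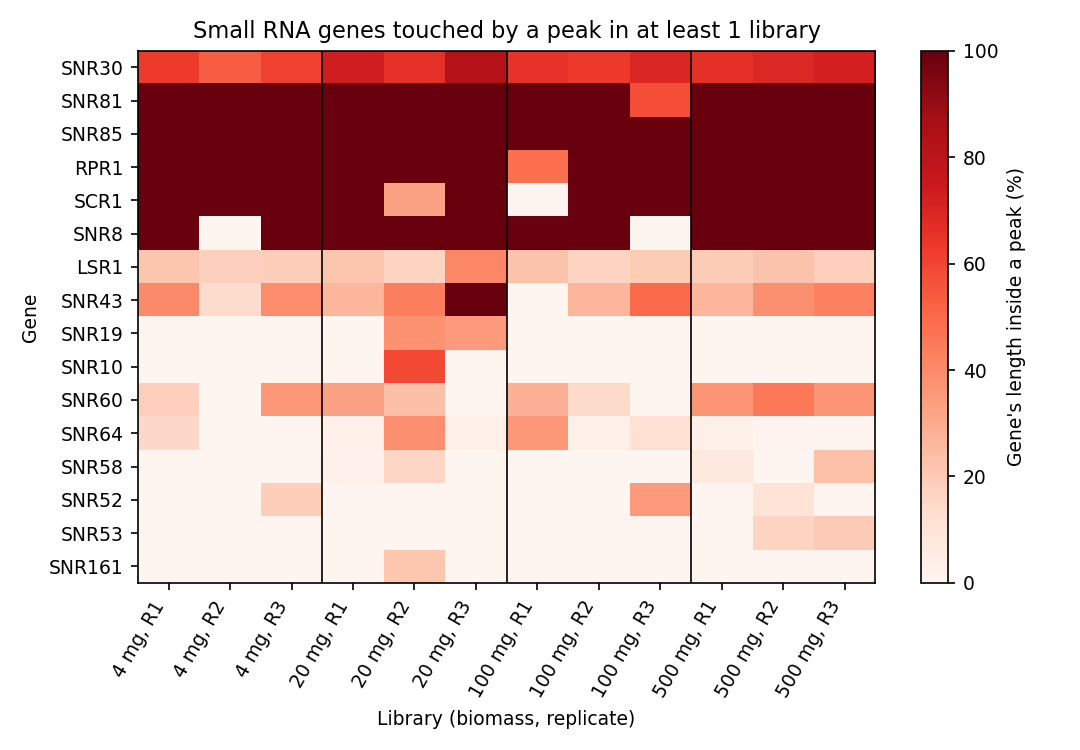
Percent of each gene's length inside a peak (colour, 0 to 100%) for the 16 small RNA genes that a peak touched in at least 1 library (rows), in the 12 libraries (columns, by biomass and replicate). SNR85 is fully covered in all 12, SNR81, RPR1, SCR1 and SNR8 in most, SNR30 and LSR1 in part in all 12, and SNR43 in full in 20 mg replicate 3 alone.

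Clustered and intronic genes had no peak over the midpoint in any library, and single genes accounted for all of the genes that did. A gene was called intronic when it lay inside a protein-coding gene, clustered when another gene of the set lay within 500 bp, and single otherwise, which gave 25 clustered, 8 intronic and 53 single genes. Single genes had a peak over them in 11.3% ± 1.61 of cases (SD, n = 12 libraries). With no peak over clustered or intronic genes, the differences of clustered minus single and of intronic minus single restate this share, at -11.3 ± 1.61 percentage points each. The share rests mainly on the same 6 genes, which had a peak in 10 or more libraries. The libraries therefore do not replicate the class difference over genes. The classes also differ in kind of RNA: box C/D genes make up 18 of the 25 clustered, 6 of the 8 intronic and 23 of the 53 single genes, and 0 of the 23 single C/D genes had a peak over the midpoint in any library. The part of RNA kind in the class differences was not tested. Single genes were longer as well, with a median of 186 bp against 106 bp for clustered and 92 bp for intronic genes. Among genes of at most 250 bp, a limit chosen after seeing the data, both differences were -7.89 points. Of the 47 single snoRNA genes, 17 had neither a peak over the midpoint nor a summit within 500 bp in any library, among them SNR13, SNR32, SNR36, SNR39B, SNR4 and SNR40. SNR4 guides acetylation of ribosomal RNA, and its nearest peak was between 432 and 1895 bp away.

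The clustered genes formed 9 groups, of which 5 are known polycistronic clusters with 17 genes. The largest, SNR78 to SNR72, holds 7 C/D genes in 1374 bp (chromosome XIII, 297278 to 298651). No library had a peak in it, and the nearest lay between 893 and 4161 bp away. The pair SNR190 and SNR128 (chromosome X, 139566 to 139950), of which SNR128 takes part in cleavage of precursor ribosomal RNA, was also free of peaks, with the nearest between 528 and 2896 bp away. So were SNR57, SNR55 and SNR61 (chromosome XII, 794486 to 795024), with peaks from 383 bp, and SNR41, SNR70 and SNR51 (chromosome XVI, 718700 to 719242), with peaks from 287 bp. Upstream of SNR41, the first gene of its cluster, 7 libraries had a summit at a median of 475 bp, which lay in the protein-coding gene ASR1. In the pair SNR67 and SNR53 (chromosome V, 61352 to 61789) peaks reached the end of SNR53 in 2 libraries and covered at most 4.11% of the pair. A summit lay downstream of SNR53 in 12 libraries, and in 10 of them it was inside the tRNA gene YNCE0004C, 104 to 144 bp away.

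The 4 other groups are not known to be polycistronic. They pair SNR161 with TLC1 and SNR5 with SNR31, both on opposite strands, NME1 with SNR66, and the 2 SNR7 entries. A peak touched 1 of these groups, covering 2.00% of the span of SNR161 and TLC1 in 20 mg replicate 2. When only the 17 polycistronic genes were called clustered, a choice made after seeing the data, the difference from single genes was -9.84 points.

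Intronic snoRNA genes were bare, while peaks lay elsewhere in some of their host genes. The 8 genes found by position are the 8 known intronic snoRNA genes, and no peak touched any of them in any library. SNR24 lies in ASC1, which encodes a ribosome-associated protein (chromosome XIII, 499984 to 500072). Summits lay on both sides of SNR24 in all 12 libraries, at a median of 346.5 bp upstream and 410 bp downstream, and all of them were inside ASC1. The nearest peak edge stayed between 104 and 159 bp from SNR24. SNR18, inside the translation elongation factor gene EFB1 (chromosome I, 142367 to 142468), had a summit within EFB1 downstream in 12 libraries, at a median of 297.5 bp, and its nearest peak edge was 131 to 179 bp away.

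The other intronic genes had fewer peaks nearby. For SNR38, in the elongation factor gene TEF4, the nearest peak was 311 to 404 bp away. For SNR191, in the ribosome assembly gene NOG2, it was 375 to 1176 bp away, and for SNR54, in IMD4, 630 to 753 bp. Of the 2 genes in paralogous ribosomal protein genes, SNR39 in RPL7A had its nearest peak at 587 to 1567 bp and SNR59 in RPL7B at 209 to 7365 bp. SNR44, in RPS22B, was the farthest of the 8, with no peak within 5080 bp in any library.

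Along the flanks, peaks became more frequent with distance from the small RNA genes. At the 5′ end 8.24% ± 1.60 of the small RNA genes lay in a peak (SD, n = 12), and the lowest level within 500 bp was 7.36%, at 20, 40 and 60 bp inside the gene (SD 1.03 to 1.34). At 500 bp upstream the mean was 21.0%, and at 500 bp downstream of the 5′ end it was 21.0% ± 2.24. Protein-coding genes were at 17.7% ± 2.95 at the start codon, with their minimum of 12.6% ± 2.11 at 80 bp upstream and a maximum of 30.5% ± 3.94 at 180 bp inside. The tRNA genes had their maximum, 58.8% ± 10.2, at 20 bp upstream. Clustered genes were at 0% from the 5′ end to 280 bp upstream in every library and at 5.33% ± 1.97 at 500 bp upstream, where single genes were at 26.4% ± 3.32.

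**Figure D3:**
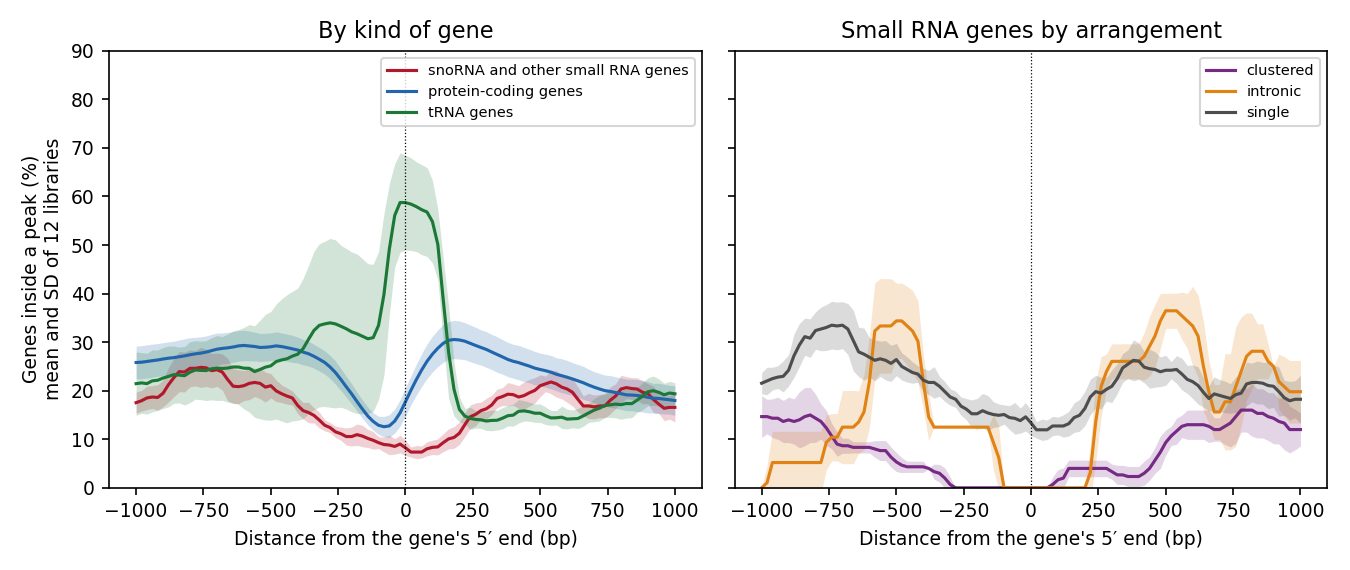
Percent of genes inside a peak (vertical axis, mean and SD of 12 libraries as line and shade) against distance from the gene's 5′ end in bp, negative upstream; for protein-coding genes this end is the start codon. The left panel sets small RNA genes, lowest from 20 to 60 bp, beside protein-coding and tRNA genes, and the right panel splits small RNA genes into clustered, intronic and single.

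Averaged over the 12 libraries, summits stood beside the small RNA genes about as often as beside other genes, but more often downstream than upstream. At least 1 summit lay within 500 bp on either side of 34.4% ± 4.25 of the small RNA genes, 34.9% ± 3.60 of the protein-coding genes and 34.7% ± 7.91 of the tRNA genes (SD, n = 12). The difference between small RNA and protein-coding genes was -0.460 ± 3.88 points and below 0 in 7 of 12 libraries. This difference was not tested against biomass, and its group means did not rise steadily with biomass. It was -2.58, -5.56 and -1.26 points at 4 mg, 0.268, -2.83 and 1.78 at 20 mg, -1.35, -1.98 and -6.19 at 100 mg, and 4.46, 6.65 and 3.07 at 500 mg. All libraries of 500 mg were above 0 and above every other library, and all of 4 mg and 100 mg were below 0. Upstream, the share was 14.7% ± 1.43 for small RNA genes and 23.7% ± 2.63 for protein-coding genes, and downstream 23.3% ± 3.84 and 15.4% ± 1.97. Upstream minus downstream was -8.53 ± 3.85 points for the small RNA genes, below 0 in 11 libraries and 0 in 100 mg replicate 1. Just 0.250 ± 0.622 summits per library lay in the first 100 bp downstream, against 5.25 ± 1.66 in the next 100 bp.

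By class, 12.7% ± 5.07 of clustered, 29.2% ± 8.14 of intronic and 45.4% ± 5.18 of single genes had a summit in either flank. In all 12 libraries this held for 16 of the small RNA genes (18.6%), and in none for 43 (50%). These shares were 14.9% and 42.6% for protein-coding genes, and 8% and 27.3% for tRNA genes. Of the flanking summits 50.4% ± 5.92 per library lay inside a protein-coding gene, against 77.3% ± 2.22 of all nuclear summits. How much of the flanks is itself coding sequence was not set beside these values, so they do not describe the peaks alone. For the upstream flank 55.1% of 158 summits and for the downstream flank 33.2% of 241 lay outside every annotated gene, counted over the 12 lists. A summit that recurs in several lists, or lies beside neighbouring genes of the set, counts each time. Genes with a summit in every list therefore weigh most in these shares.

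A summit was found on 1 side of a gene in all 12 libraries 15 times, counting each side of each gene, and its distance from the gene was steady for some and not for others. The distance spread over at most 50 bp for 6 of these 15, over more than 50 and up to 200 bp for 5, and over more than 200 bp for 4, with a full range of spreads from 15 to 434 bp. The genes described in this paragraph were chosen after their values were seen. SNR189, an H/ACA guide, had a downstream summit 218 to 233 bp away in 12 libraries. SNR60 and SNR68, both C/D guides, had downstream summits in 12 libraries at 93 to 133 bp and at 180 to 207 bp, and the second lay inside FLX1. A peak reached into SNR60 itself in 9 libraries and covered at most 45.2% of it. SNR65 had a downstream summit inside the ribosomal protein gene RPS14A in 12 libraries. SNR45, a guide of ribosomal RNA acetylation, and SNR48 had strong peaks downstream, with median percentiles of 90.3 and 94.7, outside annotated genes, at 258 to 372 bp and at 259 to 491 bp. Upstream summits in all 12 libraries occurred at SNR17B, at 341 to 390 bp, at SNR33, where they ranged from 174 to 415 bp and 9 of 12 lay in the tRNA gene SUF16, and at SNR85 and SNR24. At SNR43 they occurred in all 12 too, with 14 summits spread from 11 to 445 bp. SNR17B and SNR17A are near-identical copies of the gene for a C/D snoRNA needed for early precursor cleavage, and how reads from such copies were placed is not stated in the labels. No peak touched either copy, and SNR17A had an upstream and a downstream summit in 11 libraries each.

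**Figure D4:**
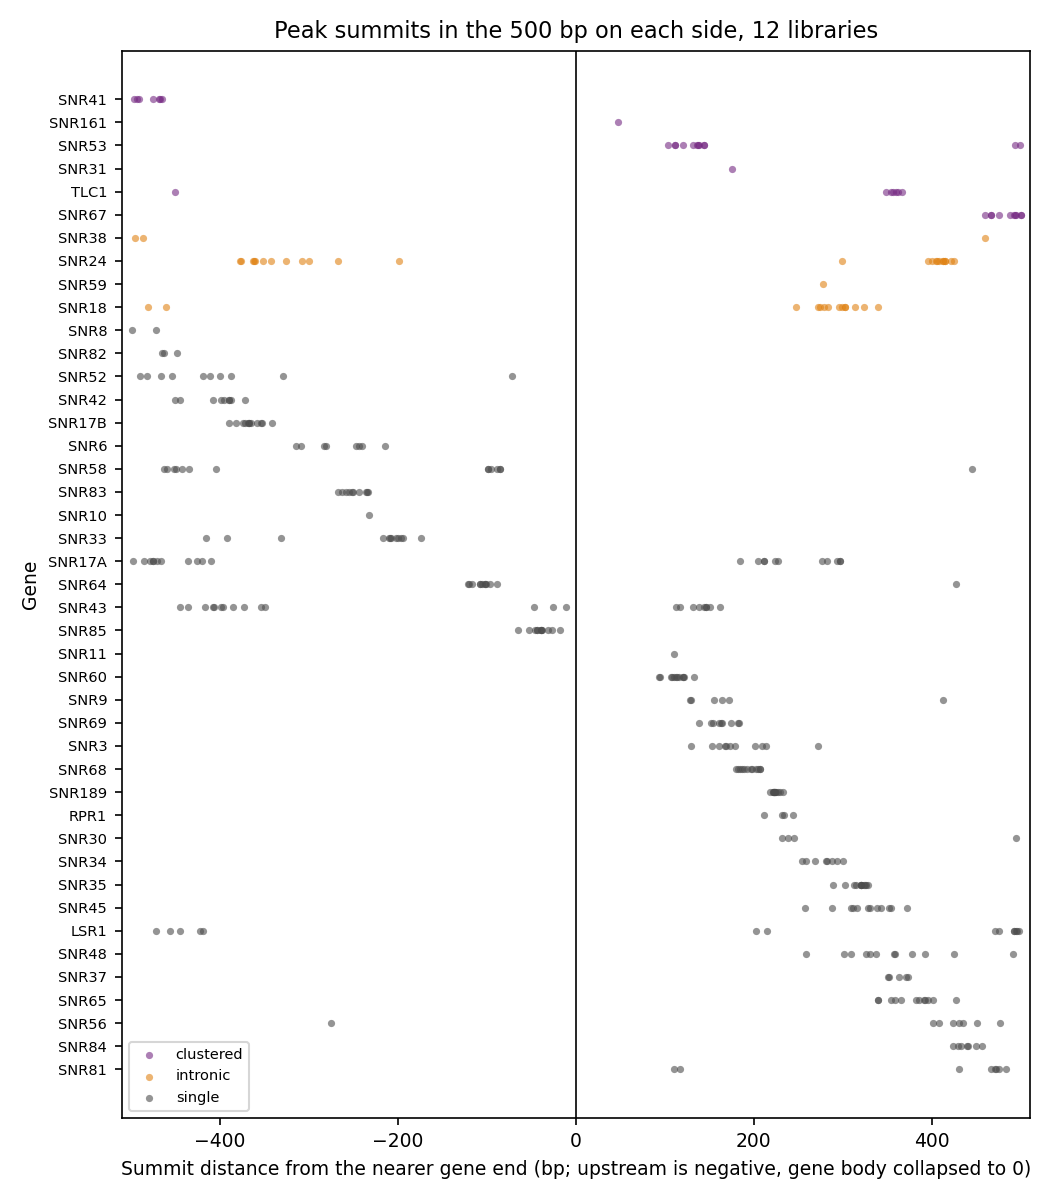
Distance of each peak summit from the nearer end of the gene (horizontal axis, bp, upstream negative, the gene body collapsed to 0) for the 43 small RNA genes with a summit within 500 bp, 1 row per gene, with points for summits in the 12 libraries coloured by class. Tight columns of points, as at SNR189 (218 to 233 bp), mark summits found at nearly the same place in each library, and scattered rows, as at SNR43 upstream (11 to 445 bp), mark those that were not.

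Across the biomasses, the count of genes with a peak over them overlapped that at 500 mg, and the count with a peak beside them was lower at 4 mg and 100 mg than at 500 mg. The number with a peak over the midpoint was 6, 5 and 6 at 4 mg, 6, 7 and 8 at 20 mg, 5, 6 and 5 at 100 mg, and 6 in each library at 500 mg. Each lower biomass overlapped 500 mg, and the means differed from it by -0.388, 1.16 and -0.775 percentage points in order of rising biomass. Among protein-coding genes the share with a peak over the midpoint was 22.3% ± 3.13 at 4 mg, 28.9% ± 1.11 at 20 mg and 21.8% ± 2.95 at 100 mg. It was 25.3% ± 0.686 at 500 mg (SD, n = 3 each), which none of the lower biomasses overlapped. The number of small RNA genes with a flanking summit was 27, 23 and 28 at 4 mg, 33, 32 and 34 at 20 mg, 24, 28 and 30 at 100 mg, and 31, 34 and 31 at 500 mg. All libraries of 4 mg and 100 mg lay below all of 500 mg, while those of 20 mg overlapped it. For the protein-coding genes the share with a flanking summit was 33.4% ± 0.922 at 4 mg, 38.6% ± 1.23 at 20 mg and 35.0% ± 5.92 at 100 mg. At 500 mg it was 32.5% ± 0.775 (SD, n = 3 each). The 4 mg and 100 mg libraries overlapped 500 mg, and all of 20 mg lay above it. The 20 mg lists were also the longest, with 6164 to 6436 nuclear peaks. Peaks covered 18.5% ± 2.36 of the nuclear genome at 4 mg and 17.3% ± 2.52 at 100 mg. At 500 mg they covered 21.1% ± 0.589, above all libraries of 4 mg and 100 mg, so lower coverage there was not confined to the small RNA genes. The part of list length and of genome coverage in these counts was not tested.

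Gene by gene, the percent of the gene and 500 bp on each side that peaks covered was compared between the 4 biomasses by an exact permutation test over all 15400 ways to divide 12 libraries into 4 groups of 3, with Benjamini-Hochberg adjustment over all 6431 nuclear genes. The test called 0% of all nuclear genes and 0 of the 86 small RNA genes at an adjusted p of 0.05. At an unadjusted p under 0.05 there were 14 small RNA genes (16.3%) and 1507 nuclear genes (23.4%). A gene in which 1 biomass stands apart while the other libraries are equal cannot go below p = 0.0182 in this exact test, so such a change could not pass the adjustment. In this exact permutation test no gene can go below p = 6.49e-05, and 1 gene alone at that value would not pass adjustment over 6431 genes. The 0 calls therefore do not show that coverage was equal between biomasses. Of the small RNA genes, 33 had no covered base in their window in any library, and the median gene had 5.32% of its window covered on average, against 14.8% for all nuclear genes. Those 33 could not reach a low p, and the share of such genes among all nuclear genes is not given here. The 16.3% and 23.4% therefore do not compare genes with peaks nearby.

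The lowest p-value belonged to SNR30. Its window was covered over 30.3%, 23.3% and 29.6% at 4 mg, 53.0%, 46.5% and 40.0% at 20 mg, 36.6%, 29.0% and 29.9% at 100 mg, and 46.3%, 49.3% and 47.4% at 500 mg. All libraries of 20 mg and 500 mg lay above all of 4 mg and 100 mg (exact permutation test, p = 0.00429, adjusted p = 0.125). The window of SNR161, an H/ACA gene, was covered over 17.4%, 28.8% and 13.8% at 20 mg and over 13.2%, 0% and 11.7% at 100 mg, and was empty in the other 6 libraries (exact permutation test, p = 0.00455, adjusted p = 0.125). That of SNR34, an H/ACA guide, was empty in all 3 libraries at 100 mg and in 4 mg replicate 2, and was covered over 13.5% or more in the other 8 (exact permutation test, p = 0.00857, adjusted p = 0.147).

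**Figure D5:**
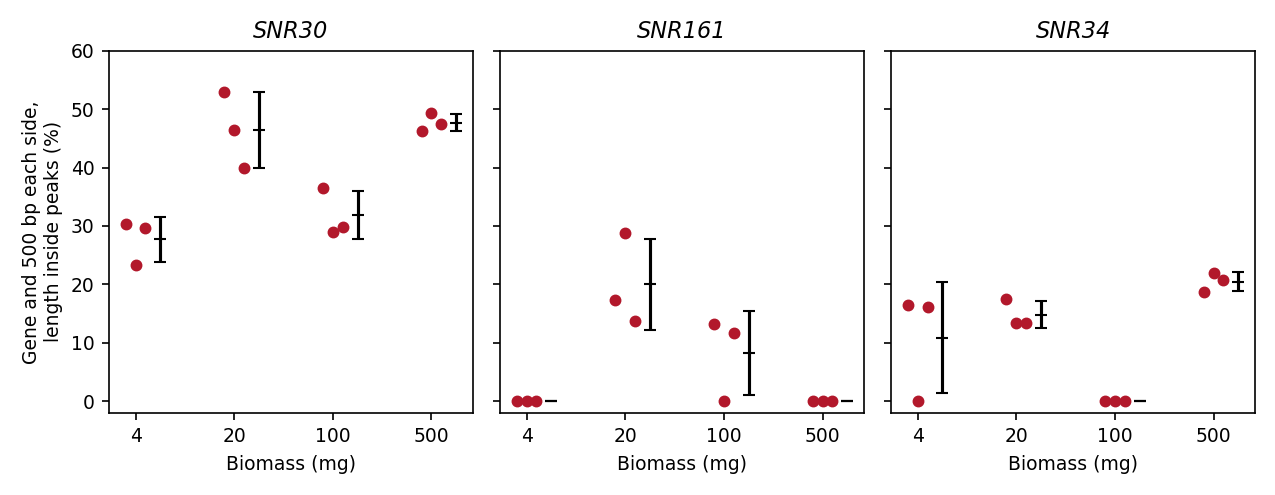
Percent of the gene and its 500 bp flanks inside peaks (vertical axis) at 4, 20, 100 and 500 mg (horizontal axis, categories) for the 3 small RNA genes with the lowest p in the test over biomasses; points are libraries and bars mean ± SD (n = 3). The 20 mg and 500 mg points lie above the others for SNR30, and SNR161 has covered sequence at 20 mg and 100 mg alone.

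Against 500 mg, 0 small RNA genes had all 3 libraries higher at 4 mg, where 1.99% of all nuclear genes did, and 17 (19.8%) had all 3 lower, where 22.3% of all did. At 20 mg, 8 (9.30%) were higher and 14 (16.3%) lower, beside 27.3% and 13.2% of all nuclear genes. At 100 mg, 2 were higher and 23 (26.7%) lower, beside 3.62% and 26% of all. The 3 comparisons share the 500 mg libraries. The 33 small RNA genes with no covered base in any library could be neither higher nor lower. The share of such genes among all nuclear genes is not given here, so these percentages do not compare genes with peaks nearby. The window of RPR1 was covered over 38.4% to 63.3% in the 9 libraries of lower biomass, against 66.5% to 68.3% in those of 500 mg (exact permutation test over the 4 biomasses, p = 0.0575, adjusted p = 0.224). The window of SCR1 was covered over 0% to 42.0% in the lower biomasses, against 43.0% to 44.3% in those of 500 mg (exact permutation test, p = 0.209, adjusted p = 0.38). In both genes every library of 500 mg lay above every other library, as it did in 9 of the 86 small RNA genes (10.5%) and in 6.28% of all nuclear genes. The other 7 were SNR34, SNR41, SNR53, SNR61, SNR67, SNR70 and SNR189, of which SNR67 and SNR53, and SNR41 and SNR70, lie in overlapping windows.

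Most genes for proteins that work with snoRNAs had no summit upstream. Of 10 such genes, among them NOP1, the methyltransferase of C/D particles, CBF5, the pseudouridine synthase of H/ACA particles, and RNT1, the RNase III that trims clustered snoRNAs, 9 had no summit in the 500 bp upstream and 8 no peak over the midpoint in any library. Over all protein-coding genes these shares were 58.0% and 62.4%. NHP2, an H/ACA particle protein, had one in 5 libraries and a peak over its midpoint in 2, and GAR1 had a peak over its midpoint in 1. The test over biomasses called 0 of the 10 (exact permutation test, lowest adjusted p = 0.112, for NHP2).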

How the data were processed

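The lists were deposited in narrowPeak form, 1 per FAIRE and input pair, so replicates were not pooled, per the labels. Bowtie2, SAMtools, bedtools, FastQC and MACS2 and build R64 (sacCer3) are named, per the submitters' processing notes; settings, peak threshold and the placing of multiply mapped reads are not named there. Each deposited peak carries a fold enrichment at its summit (a ratio, with input as the base), a −log10 p-value and a −log10 q-value, all written by the authors' peak caller; they served here to describe, rank or filter peaks of the same list. The score deposited with each peak is a rounded multiple of −log10 q and was not used.

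Positions and biotypes of genes were read from RefSeq's R64 gene table, with strands from the last letter of locus tags. It gives no chromosome lengths, so the genome was taken to end at the last gene or peak. Coordinates are 1-based. Gene spans include introns. Promoter sequences were not used here, so the planned motif search was not done. No depth in reads was computed. Percentages and exact permutation tests were computed with Python 3.11.15 and numpy 2.4.6; the test was checked on simulated data. Alternatives changed the peak threshold, the rule for a peak over a gene, flank and cluster distances and the libraries used.

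The gene set, lists and tests were chosen with earlier results of these data known. Named were all genes for RNAs other than snoRNAs, all intronic genes, all clusters, up to 8 single snoRNA genes with a peak in most libraries (6 had any), 6 with the fewest, the 3 with the lowest p over biomasses, and others where said.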

Additional observations from a re-analysis of the deposited data

How the results depend on the processing

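The share of small RNA genes with a peak over them was 11.9% when 1 shared bp sufficed, 5.23% when a summit had to lie inside the gene, and 4.41% among genes of at most 250 bp, an alternative chosen after seeing the data. In the same order the difference of clustered minus single genes was -17.9, -8.49 and -7.89 percentage points, and that of intronic minus single genes -18.9, -8.49 and -7.89. The share with a flanking summit was 23.8% with the 3000 strongest peaks of each list, 14.5% with flanks of 250 bp and 60.9% with flanks of 1000 bp. The differences from 500 mg in the share with a peak over the gene changed sign under some alternatives. For 4 mg minus 500 mg the value was -2.71 points with 1 shared bp and 1.16 with a summit inside. For 20 mg it was -1.16 with the 3000 strongest peaks and 2.71 with a summit inside. For 100 mg it was -1.55 at a −log10 q of 5 or more and with the 3000 strongest peaks, -2.71 with 1 shared bp and 1.55 with a summit inside. The cause was not tested.

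Leaving out 1 library at a time gave 6.77% to 7.08% for peaks over genes, 33.9% to 35.1% for flanking summits and -11.5 to -11.0 points for clustered or intronic minus single genes. Against 500 mg it gave -0.581 to 0 points for 4 mg, 0.581 to 1.74 for 20 mg and -1.16 to -0.581 for 100 mg. The exact permutation test over biomasses called 0 small RNA genes under each alternative run. Over all nuclear genes it called 10 with flanks of 1000 bp. Dropping replicate 3 of 4 mg gave 10 calls, dropping replicate 3 of 20 mg gave 9, and dropping replicate 2 of 100 mg gave 18, against 0 under the others run.

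To see whether replicate numbers pair the samples, deviations of libraries were correlated, not their values as such. With the same number, correlations ran from -0.714 to 0.470 over 18 pairs of libraries (median -0.106), 6 of them over 0.1. With different numbers they ran from -0.590 to 0.781 over 36 pairs (median 0.0877), 17 of them over 0.1. Just 2 of 12 libraries correlated best with their own number, so the numbers were not taken to pair the samples. With the replicate number as a block the test called 0 small RNA genes, and 7 instead of 14 had an unadjusted p under 0.05. That exact permutation test has 576 arrangements and cannot go below p = 0.00174, so 1 gene alone could not pass the adjustment. Its counts therefore do not show how far the result depends on the block. Peak lists hold no depth, so the absence of a peak does not show closed chromatin. Whether a peak marks open chromatin was not tested here. Peaks covered 20.5% ± 3.17 of protein-coding sequence and 17.2% ± 2.07 of sequence outside all annotated genes (SD, n = 12).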
